A study of Rattus norvegicus with 8 samples.

Results

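Pou5f1, Nanog, Myc, Lin28a, Esrrb, Tfcp2l1, Dppa3 and Utf1 are 8 genes known as partners of the transcription factor Klf4 in pluripotent stem cells. They were taken by their rat symbols, as the gene probes whose RefSeq transcript belongs to a listed symbol. All 8 had at least 1 of 13 probes, out of 16581 gene symbols on the array, and all 8 were tested through 11 kept probes. Kept probes are those that the software flagged well above background on 3 or 4 arrays of either group, and the brightest kept probe stands for its gene.

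Gene expression was measured with Agilent single-colour arrays in retinal cells of Lister hooded rats. In the Klf4 group (4 arrays), a Klf4 plasmid was electroporated into retinas of postnatal day 0 in vitro, and in the control group (4 arrays) a control plasmid. Both groups received 5 square pulses of 25 V lasting 50 ms each, were cultured as explants for 39 hours and were sorted for GFP, so that every array holds cells that had taken up a plasmid. The labels do not name the promoter that drives Klf4, nor whether the replicates, numbered 2 to 5 in each group, came from separate litters or electroporations, so p-values rest on a spread between samples that may be only technical.

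In pluripotent cells, Pou5f1, Sox2 and Nanog bind one another's regulatory regions and hold the undifferentiated state. Klf4, Esrrb and Tfcp2l1 belong to the same network, and Klf4 and Tfcp2l1 answer to the cytokine LIF. Klf4, Pou5f1, Sox2 and Myc together reprogram fibroblasts to induced pluripotent stem cells, and Nanog and Lin28a have been used with such sets. Newborn retina holds dividing progenitors and differentiating neurons, which are not pluripotent, although Sox2 and Myc-family genes are used there by progenitors.

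None of the 8 genes passed the test. With limma and a Benjamini-Hochberg adjusted p under 0.05 as the threshold, 0 members were called, while 931 of 29995 tested genes and features were (3.10%). The smallest adjusted p among the members was 0.239. With every kept probe tested by itself, limma called 0 of the members' 11 probes, against 3.09% of all 34738. At an unadjusted p under 0.05, limma gave 1 member, Dppa3, against 14.4% of all features. The members' log2 differences, Klf4 minus control, ran from -0.64 for Dppa3 to 0.11 for Lin28a. Their median was -0.08, with 2 above 0 and 6 below, beside a median of -0.16 over everything tested, of which 25.7% lay above 0. In 7 of the 8 genes the Klf4 and control arrays overlapped. The exception was Tfcp2l1, lower on all 4 Klf4 arrays, a pattern that 8.16% of all features showed, while 4.56% were higher on every Klf4 array.

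The signals were scaled by subtracting each array's 75th percentile, on the log2 scale, and the scale bears on how a difference near 0 is read. The median of all differences was -0.06 with quantile normalization, -0.08 with array medians and -0.04 with no scaling. Of the called features, 734 were higher and 197 lower (78.8% higher), against 526 higher and 2 lower with no scaling (99.6% higher). Set against the median of all features, 5 members lay above it, Lin28a most at 0.27, and 3 lay below it, Dppa3 at -0.48, Tfcp2l1 at -0.17 and Myc at -0.13.

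The arrays lay on 1 slide, in 2 scans. Both arrays numbered 5 were in the second scan, with 75th percentile signals of 2615 (Klf4) and 2399 (control), while the first-scan arrays had 4465 to 5304 (Klf4) and 3787 to 5370 (control). Both arrays numbered 4 were outside the quality limits of the scanner software, and the Klf4 array numbered 4 had the smallest share of spots well above background, 72.1%. All Klf4 arrays lay in slide columns 2 and 4 and all controls in columns 1 and 3, so slide column and group cannot be told apart. All 10 retinal progenitor markers and all 8 photoreceptor markers were well above background on all 8 arrays. So were 4 of 6 lens markers and 3 of 4 red blood cell markers. On each array 72.1% to 86.5% of gene spots carried this flag, so it does not by itself identify the tissue. In bulk samples, fewer cells of a type and less RNA per cell cannot be told apart.

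Promoter sequence is shown for 4 genes on which the results turn: Dppa3, the member with the smallest p, Esrrb, the member whose promoter held the most Klf4-type motifs, and Dnmt3l and Gbx2, the other network genes that rose most clearly. Each is the 250 bases before the transcription start in RefSeq's GRCr8, read 5′ to 3′ along the gene's strand. Capitals mark CACCC or, for the opposite strand, GGGTG, the core of the CACCC box that KLF proteins bind; overlapping matches were counted. Dppa3 lies on the + strand at chr4:157523176-157523425, Esrrb on the + strand at chr6:111738412-111738661, Dnmt3l on the - strand at chr20:10628990-10629239 and Gbx2 on the - strand at chr9:97959884-97960133.
Dppa3: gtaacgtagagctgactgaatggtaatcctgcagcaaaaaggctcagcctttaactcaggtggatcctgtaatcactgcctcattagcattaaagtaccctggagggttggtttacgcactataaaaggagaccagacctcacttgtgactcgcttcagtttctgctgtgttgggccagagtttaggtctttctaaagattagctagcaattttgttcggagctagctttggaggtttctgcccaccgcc
Esrrb: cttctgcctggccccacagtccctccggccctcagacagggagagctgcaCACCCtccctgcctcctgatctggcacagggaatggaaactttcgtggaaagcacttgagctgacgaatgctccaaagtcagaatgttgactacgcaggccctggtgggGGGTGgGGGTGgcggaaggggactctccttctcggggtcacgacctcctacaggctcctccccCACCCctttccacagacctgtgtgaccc
Dnmt3l: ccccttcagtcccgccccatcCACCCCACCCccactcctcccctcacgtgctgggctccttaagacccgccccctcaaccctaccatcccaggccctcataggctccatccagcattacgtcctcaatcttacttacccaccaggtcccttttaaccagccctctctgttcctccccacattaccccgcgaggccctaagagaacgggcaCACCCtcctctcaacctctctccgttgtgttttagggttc
Gbx2: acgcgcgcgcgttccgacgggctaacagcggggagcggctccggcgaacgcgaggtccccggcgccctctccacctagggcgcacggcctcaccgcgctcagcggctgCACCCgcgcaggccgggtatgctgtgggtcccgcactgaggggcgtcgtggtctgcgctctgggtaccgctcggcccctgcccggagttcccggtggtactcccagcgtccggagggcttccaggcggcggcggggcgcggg
The motif occurred 0 times in the Dppa3 window, 4 times in Esrrb, 3 times in Dnmt3l and once in Gbx2. Of the 6 members with an entry, Nanog and Lin28a held 2 matches each, Tfcp2l1 and Utf1 held 0, and 3 of the 6 held at least 1. Of all 33469 RefSeq promoter windows of this length, 49.2% held the motif and 6.55% held it at least 3 times. The matches describe letters in these windows only.

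**Figure D1:**
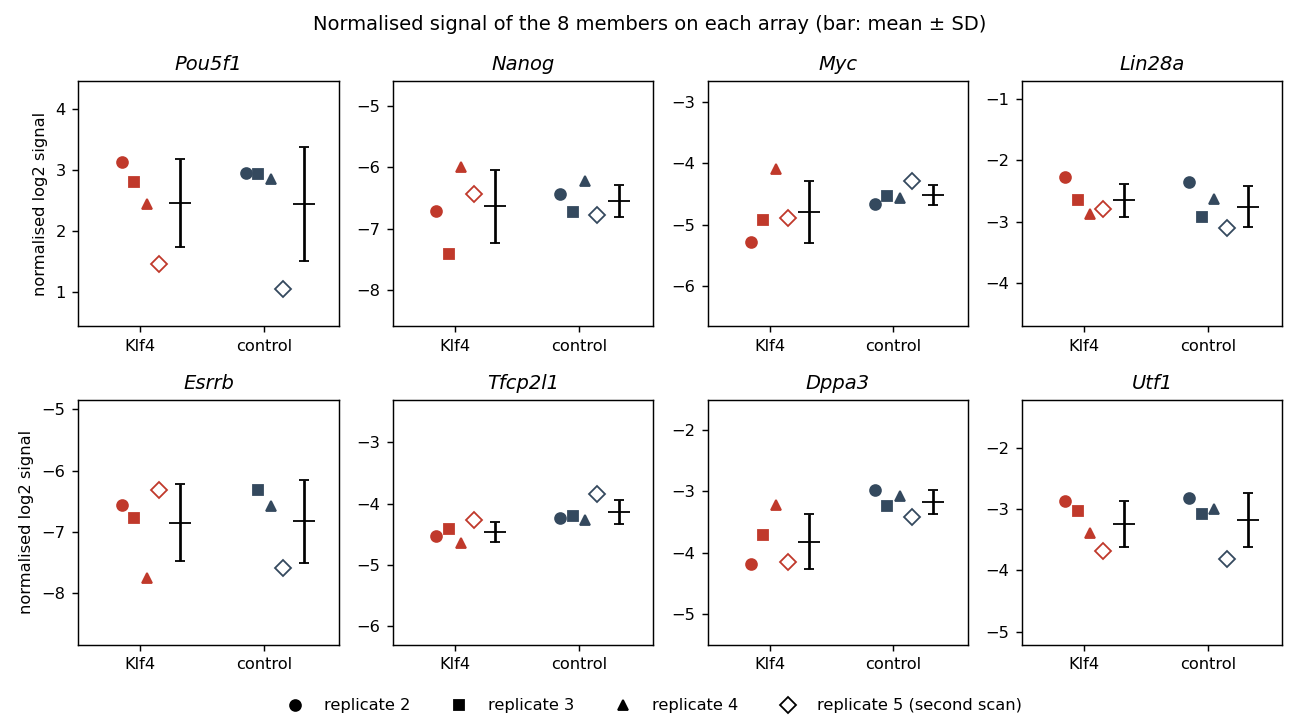
Normalised log2 signal (log2 intensity minus the array's 75th percentile, vertical axes) of the 8 members on the 4 Klf4 and 4 control arrays, with group means and SD. The groups overlap in every panel except Tfcp2l1, and the replicate numbered 5 is the lowest Pou5f1 point of both groups.

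Pou5f1, the POU-domain factor also called Oct4, had 1 probe (A_64_P000271), well above background on all 8 arrays, with no difference between groups beyond their spread. No other probe was at hand to check that this bright signal comes from Pou5f1 RNA. Its log2 signals before scaling, on the arrays numbered 2, 3, 4 and 5, were 15.41, 14.93, 14.81 and 12.81 with Klf4, against 15.09, 15.32, 14.74 and 12.28 in controls. The array numbered 5 was lowest in both groups, and the groups overlapped. After scaling, Pou5f1 averaged 2.46 ± 0.73 in Klf4 cells and 2.45 ± 0.93 in control cells (SD, n = 4 each). The log2 difference was 0.01 with a 95% interval of -1.17 to 1.19, a fold of 1.01 (0.445 to 2.28; limma, adjusted p = 0.995). The second-scan arrays stood at 1.46 (Klf4) and 1.05 (control), below the first-scan values of 2.44 to 3.13 with Klf4 and 2.85 to 2.95 in controls. Within the first scan the difference was -0.12, and between the second-scan arrays 0.40.

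Nanog, the homeobox factor of the core circuit, was dim. Probe A_64_P015451 was well above background on all 4 Klf4 arrays and on 3 of the 4 controls. Its log2 signals were 5.56, 4.71, 6.38 and 4.91 with Klf4, against 5.70, 5.66, 5.67 and 4.45 in controls. The Klf4 values lay on either side of the controls. Scaled levels averaged -6.64 ± 0.60 in Klf4 cells and -6.54 ± 0.27 in controls (SD, n = 4 each), a log2 difference of -0.10 (95% interval -0.78 to 0.58; limma, adjusted p = 0.902). The direction turned to 0.03 with quantile normalization, to 0.02 with no scaling and to 0.34 between the second-scan arrays. A second Nanog probe, A_64_P015445, was not well above background on any array and was not tested. Its log2 signals were 2.05, 2.29, 3.84 and 2.38 with Klf4, against 2.05, 2.09, 2.92 and 2.39 in controls, with the array numbered 4 highest in both groups.

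Utf1 encodes a chromatin-associated factor of undifferentiated embryonic cells. Its probe (A_64_P129162) read 9.41, 9.10, 8.99 and 7.66 with Klf4, against 9.31, 9.31, 8.89 and 7.42 in controls. Same-numbered arrays lay close to each other, and the array numbered 5 was lowest in both groups. The scaled levels were -3.24 ± 0.37 in Klf4 cells and -3.18 ± 0.43 in controls (SD, n = 4 each). The log2 difference of -0.07 had a 95% interval of -0.67 to 0.54 (limma, adjusted p = 0.927), and its sign turned to 0.07 with quantile normalization and to 0.05 with no scaling.

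Esrrb, an orphan nuclear receptor of the pluripotency network that rod photoreceptors also express in mouse, was well above background on fewer arrays than any other member was on its tested probe. Probe A_64_P115811 was well above background on 3 Klf4 arrays and 2 controls. Its log2 signals with Klf4 were 5.71, 5.34, 4.62 and 5.04, against 6.08, 5.31 and 3.64 on controls numbered 3, 4 and 5. The spot on control array 2, at 8.82, carried the software's outlier flag for non-uniform pixels and was left out, so the control group has 3 values here. The groups overlapped. Scaled levels were -6.85 ± 0.63 in Klf4 cells (n = 4) and -6.83 ± 0.67 in controls (n = 3), a log2 difference of -0.03 with a 95% interval of -1.03 to 0.98 (limma, adjusted p = 0.985). With outlier spots kept, an alternative chosen after seeing the data, the difference was -0.90 (limma, adjusted p = 0.661), so that 1 spot set its size. The difference was -0.59 within the first scan and 1.27 between the second-scan arrays. Photoreceptor markers were looked at in the same samples. Of 8 tested, limma called 4 lower, against 0.657% of all features. The markers' median log2 difference was -0.72, beside -0.16 over all features. Their summed level was 4.93 to 5.81 with Klf4 and 5.58 to 6.07 in controls, so the groups overlapped. Their part in the Esrrb values was not tested.

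Tfcp2l1, a CP2-family factor of the same network, was lower on all 4 Klf4 arrays by a small amount that did not pass. Probe A_44_P977318 read 7.74, 7.71, 7.72 and 7.08 with Klf4, against 7.90, 8.19, 7.63 and 7.38 in controls. Before scaling the groups overlapped, since the controls numbered 4 and 5 lay below 3 Klf4 arrays. After scaling, Klf4 arrays lay at -4.65 to -4.27 and controls at -4.26 to -3.85, with no overlap. The log2 difference was -0.33 (SE 0.14, 95% interval -0.66 to 0.00), a fold of 0.795, with limma's unadjusted p = 0.0511 and adjusted p = 0.35. The difference was -0.30 within the first scan and -0.42 between the second-scan arrays. A second probe, A_44_P1152167, was well above background on 1 Klf4 array and 2 controls and was not tested. It read 4.67, 4.17, 4.00 and 4.21 with Klf4, against 5.58, 4.93, 4.48 and 3.16 in controls. Its Klf4 arrays were lower at the first 3 numbers and higher at the fourth.

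Dppa3, also called Stella, a maternal factor that guards DNA methylation marks in the early embryo and is made in primordial germ cells, had the largest difference among the members. Probe A_44_P1084516 read 8.08, 8.41, 9.15 and 7.20 with Klf4, against 9.15, 9.16, 8.81 and 7.81 in controls. After scaling these became -4.19, -3.72, -3.23 and -4.16 with Klf4, against -2.98, -3.24, -3.07 and -3.42 in controls. The Klf4 array numbered 4 lay inside the control range and the other 3 lay below it. The group means were -3.82 ± 0.45 in Klf4 cells and -3.18 ± 0.19 in controls (SD, n = 4 each). The log2 difference was -0.64 (SE 0.23, 95% interval -1.17 to -0.11), a fold of 0.64 (0.443 to 0.924). limma's unadjusted p was 0.0231, and the adjusted p of 0.239 did not pass.

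Dppa3 passed the threshold under 2 of 24 alternative settings. Without the Klf4 array numbered 4 the difference was -0.84 (limma, adjusted p = 0.0323), in a fit that called 1141 features higher and 514 lower. With array quality weights it was -0.80 (limma, adjusted p = 0.0073), in a fit that called 1663 higher and 2153 lower. Without both arrays numbered 4 it was -0.81 and did not pass (limma, adjusted p = 0.104). Within the first scan it was -0.61 and between the second-scan arrays -0.73. The second kept probe, A_44_P1366601, gave a smaller difference of -0.30 (SE 0.21; limma, adjusted p = 0.549). It read 7.34, 7.50, 8.25 and 7.22 with Klf4, against 8.11, 8.02, 7.68 and 7.22 in controls. On this probe too the Klf4 array numbered 4 was the highest of its group.

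Myc, the basic helix-loop-helix factor that drives growth and proliferation, did not pass. Its probe (A_42_P493380, printed on 2 spots) read 6.99, 7.19, 8.29 and 6.47 with Klf4, against 7.47, 7.86, 7.32 and 6.95 in controls. The Klf4 array numbered 4 was the highest of all 8, and the other 3 Klf4 arrays were lower than their same-numbered controls. Scaled levels averaged -4.80 ± 0.50 in Klf4 cells and -4.51 ± 0.16 in controls (SD, n = 4 each), a log2 difference of -0.29 (SE 0.25, 95% interval -0.85 to 0.28; limma, adjusted p = 0.638). The difference was -0.18 within the first scan and -0.60 between the second-scan arrays. With array quality weights it was -0.46, and limma's adjusted p was then 0.0478, in a fit that called 1663 features higher and 2153 lower. Without the Klf4 array numbered 4 it was -0.52 (limma, adjusted p = 0.102), and without the Klf4 array numbered 2 it was -0.12 (limma, adjusted p = 0.808).

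Lin28a, an RNA-binding protein that blocks maturation of let-7 microRNAs, had 3 kept probes that did not share a sign. The brightest, A_44_P368901, read 10, 9.47, 9.49 and 8.55 with Klf4, against 9.77, 9.46, 9.26 and 8.11 in controls. Every Klf4 array was at or above its same-numbered control before scaling, and the groups overlapped. Scaled levels were -2.65 ± 0.27 in Klf4 cells and -2.76 ± 0.33 in controls (SD, n = 4 each), a log2 difference of 0.11 (95% interval -0.37 to 0.58; limma, adjusted p = 0.844). The other kept probes gave differences of -0.16 (A_44_P793551, SE 0.18; limma, adjusted p = 0.711) and -0.17 (A_44_P1106142, SE 0.21; limma, adjusted p = 0.729). The mean over the kept probes gave -0.08, so no direction can be given for Lin28a.

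**Figure D2:**
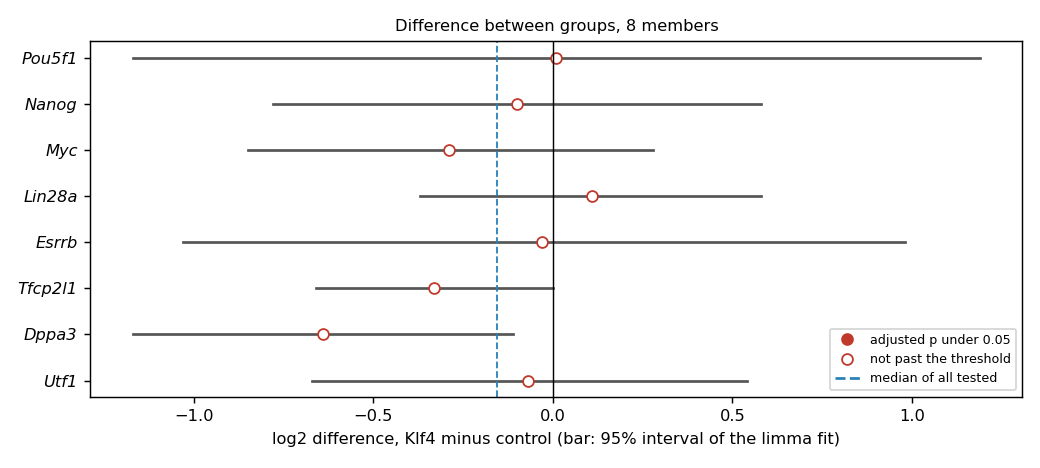
Log2 difference, Klf4 minus control (horizontal axis), of the 8 members with the 95% interval from limma, beside the median of all tested features (-0.16). The interval of Dppa3 (-1.17 to -0.11) lies below 0, that of Tfcp2l1 (-0.66 to 0.00) reaches it, and the other 6 span 0.

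Klf4 itself was measured by 1 probe (A_43_P12908). It averaged -4.73 ± 0.89 in Klf4 cells and -4.91 ± 0.59 in controls (SD, n = 4 each), a log2 difference of 0.18 (SE 0.47; limma, adjusted p = 0.887). The labels do not say which part of the Klf4 transcript the plasmid carries or where the probe lies, so this value does not check the labels.

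Across the 8 arrays, members were compared with one another by Pearson's r, as a description of arrays that share a slide and 2 scans. Pou5f1 and Utf1 were the most alike pair (r = 0.97), and both were lowest on the second-scan arrays. Lin28a followed Utf1 with r = 0.80 and Pou5f1 with r = 0.70. Myc and Dppa3 had r = 0.71, and Myc and Lin28a had r = -0.71. Among the Klf4 arrays, Myc and Dppa3 were both highest on the one numbered 4, where Dppa3 lay inside its control range.

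Among 13501 other named genes, the closest to each member by the same measure were chosen by r alone. For Pou5f1 they were Krtap14 and Th (r = 0.997 each), and for Utf1 Fbxo39 (0.998) and Gsn (0.997). Nanog was followed by Vom1r15 (0.981) and Or4f53b (0.959), and Myc by Iqcb1 (0.988) and Airim (0.984). Lin28a had Tex101 (0.949) and Wfdc11 (0.939), Tfcp2l1 had Mcm2 (0.990) and Kcnab3 (0.982), and Dppa3 had Slc9a8 (0.990) and Hemk1 (0.987). Esrrb was left out because of its missing control value.

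The rest of the pluripotency network was taken as 29 further genes, of which 16 had a probe and 13 were tested. Of these, limma called 3 higher with Klf4 and 0 lower, and 10 did not pass, with a median of -0.07 (2.45% of all features were called higher and 0.657% lower). Dnmt3l and Gbx2 were well above background in both groups. The third, Gdf3, was tested only because its Klf4 arrays were, so its call had to go with a difference and is not counted as support. The values of the tested genes are shown in the plot of network differences.

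Dnmt3l, the catalytically inactive partner of the de novo DNA methyltransferases, rose most. Its scaled levels were -2.45, -2.98, -2.99 and -1.79 with Klf4, against -5.66, -5.75, -5.96 and -6.28 in controls. Every Klf4 array lay well above every control. The means were -2.55 ± 0.57 in Klf4 cells and -5.91 ± 0.28 in controls (SD, n = 4 each), a log2 difference of 3.36 (SE 0.29; limma, adjusted p = 0.000759).

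Gbx2, a homeobox factor that patterns the hindbrain boundary and sustains mouse embryonic stem cells downstream of LIF, rose as well. Its levels were 0.52, -0.02, -0.27 and 0.67 with Klf4, against -1.62, -2.16, -1.98 and -1.93 in controls, with no overlap. The log2 difference was 2.14 (SE 0.23; limma, adjusted p = 0.00209).

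Gdf3, a TGF-beta family ligand of pluripotent cells, was well above background on 3 Klf4 arrays and on 0 controls, so its control level is uncertain. The control level was taken, array by array, as the higher of the probe's own signal and the lowest signal well above background. Gdf3 was then 3.71-fold higher with Klf4. A probe can exceed that lowest signal without being flagged, so 3.71-fold is not a lower limit. Its levels were -6.47, -6.67, -5.66 and -7.56 with Klf4, against -9.39, -10.24, -8.15 and -8.92 in controls. Since the probe entered the test through the Klf4 arrays alone, limma's adjusted p of 0.0338 is given as a description. It was 0.0558 when every probe was tested unfiltered, and the call was also lost without Klf4 replicate 2 or 3 or control replicate 2, 3 or 5 (limma, adjusted p up to 0.116). With normexp background correction the difference was 0.45 (limma, adjusted p = 0.39).

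**Figure D3:**
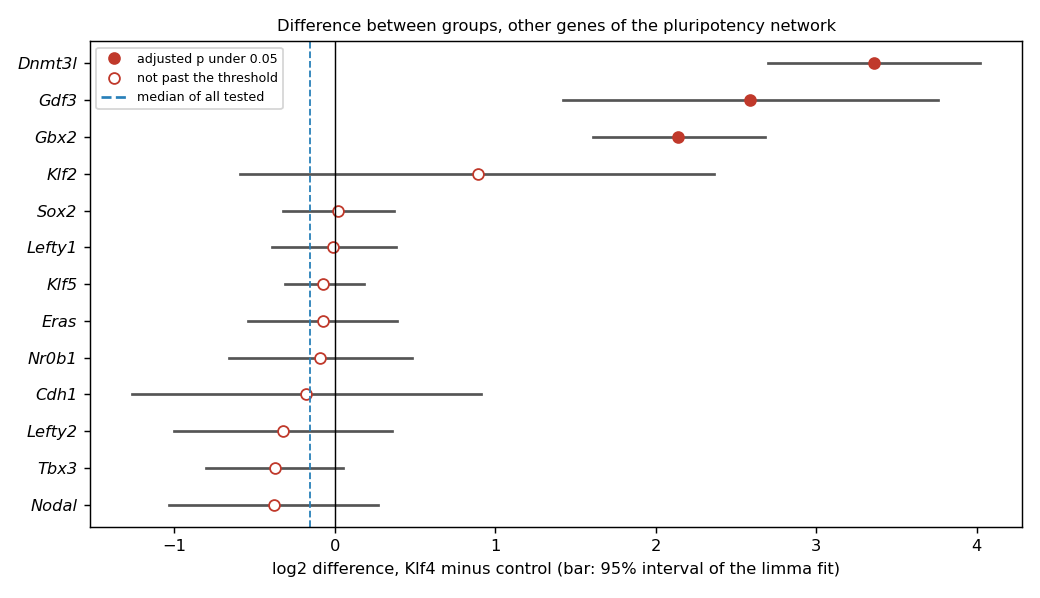
Log2 difference, Klf4 minus control (horizontal axis), with 95% intervals for the 13 tested genes of the wider pluripotency network. Dnmt3l (3.36), Gdf3 (2.59) and Gbx2 (2.14) lie right of the others, with Gdf3 drawn at its measured value although its controls were not well above background.

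Gdf3, Dppa3 and Nanog are neighbours on chromosome 4 in the GRCr8 gene order, so their values were set side by side. Along the chromosome, Apobec1 differed by -0.03, Gdf3 by the values given above, Dppa3 by -0.64, Nanog by -0.10, Slc2a3 by 1.03 and Foxj2 by 0.02. Of the other neighbours, Slc2a3, the neuronal glucose transporter, came nearest to the threshold (SE 0.24; limma, adjusted p = 0.0704). These neighbours were named after their values were seen.

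Sox2, the remaining reprogramming factor and a gene of retinal progenitors, was also looked at after its value was seen. Its log2 difference was 0.02 with a 95% interval of -0.32 to 0.37 (limma, adjusted p = 0.961). The largest differences among network genes that did not pass were those of Klf2, a relative of Klf4 (0.89; limma, adjusted p = 0.576), and Nodal, a TGF-beta family ligand (-0.38; limma, adjusted p = 0.583). The Klf4 array numbered 4 set both sizes: Klf2 read -3.59 on it and -6.76 to -6.30 on the other 3 Klf4 arrays, and without it the differences were 0.16 for Klf2 and -0.08 for Nodal.

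Further lists followed the members' own pathways, and limma called 0 genes in each of them, while an unadjusted p under 0.05 was given by limma to 2 genes of the LIF pathway, 2 of the MYC network, 1 MYC target, 2 of the LIN28 axis, 1 relative of Esrrb and 1 of Tfcp2l1. That makes 9 of the 53 tested genes, or 17.0%, beside 14.4% of all features. With array quality weights, limma called Mycl, Cad, Arid3b, Esrrg and Grhl1 of the genes named below, and Mycl, Cad and Esrrg also passed without Klf4 replicate 4. Calls rose over all features too: 1663 higher and 2153 lower with the weights, against 734 and 197 in the main fit. Without Klf4 replicate 4 they were 1141 higher and 514 lower. The 9 LIF pathway genes tested had a median of -0.03, with Lifr, the LIF receptor, at -1.19 (limma, adjusted p = 0.263) and Stat3, its transcription factor, at 0.39 (limma, adjusted p = 0.297). The 10 tested genes of the MYC network had a median of -0.29. Mxd3, a MYC antagonist, stood at -0.70 (limma, adjusted p = 0.349) and Mycl, a MYC paralogue, at -0.49 (limma, adjusted p = 0.118). All 22 MYC target genes were tested, with 3 above 0, 19 below and a median of -0.09, beside 25.7% above 0 among all features. Their largest differences were those of Cad, an enzyme of pyrimidine synthesis (-0.55; limma, adjusted p = 0.103), and Polr1b, a subunit of RNA polymerase I (-0.32; limma, adjusted p = 0.39). Without Klf4 replicate 4, Mxd3 was -0.45 and Polr1b -0.19.

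The LIN28 and let-7 axis had 6 tested genes, all below 0, with a median of -0.24. Igf2bp1, an RNA-binding protein and let-7 target, stood at -0.65 (limma, adjusted p = 0.453), and Arid3b at -0.52 (limma, adjusted p = 0.158). Of the 3 tested relatives and coactivators of Esrrb, with a median of -0.55, Esrrg came nearest to the threshold at -1.35 (SE 0.35; limma, adjusted p = 0.0929). It passed with quantile normalization (-1.18; limma, adjusted p = 0.0444) and without Klf4 replicate 4 (-1.01; limma, adjusted p = 0.0434). Ppargc1b, a coactivator of these receptors, differed by -0.55 (limma, adjusted p = 0.597). The 3 tested CP2 and grainyhead relatives of Tfcp2l1 had a median of -0.13, with Grhl1 at 0.50 (limma, adjusted p = 0.282) and Ubp1 at -0.34 (limma, adjusted p = 0.492). Without Klf4 replicate 4, Igf2bp1 was -0.31, Ppargc1b -0.20 and Ubp1 -0.17.

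**Figure D4:**
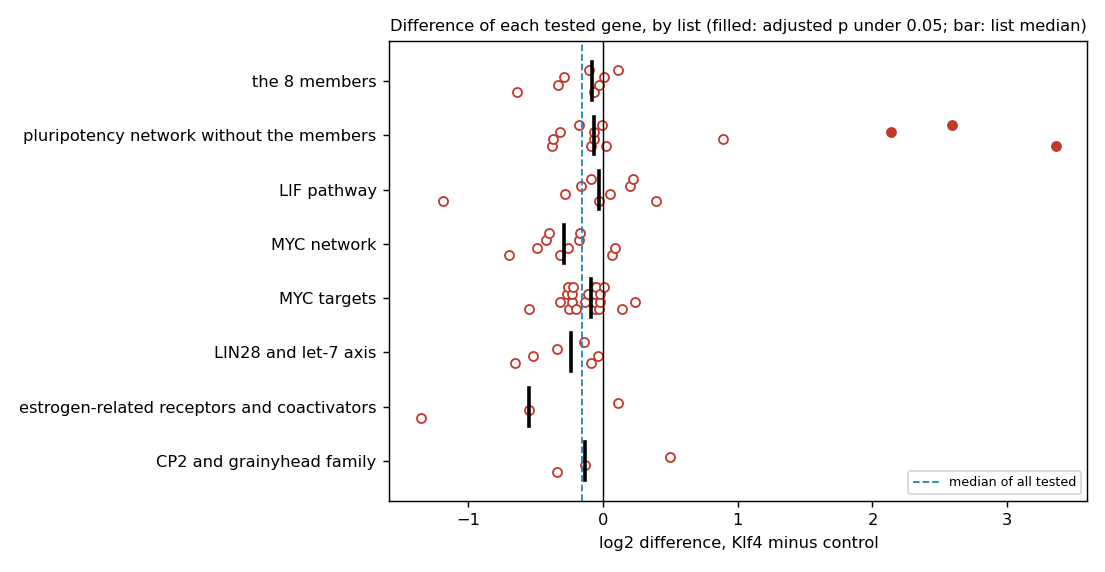
Log2 difference, Klf4 minus control (horizontal axis), of every tested gene in the members' list and the pathway lists, with the list median. Points past the threshold occur only in the wider network list, and the MYC network and LIN28 lists have medians of -0.29 and -0.24 beside -0.16 for all features.

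Dppa3 is a germ cell gene, so germ cell markers were set beside it. Of 9 with a probe, 6 were well above background on all 8 arrays, and Mael and Sycp3, meiotic markers, were so on none. Their summed level was 3.03 to 3.45 with Klf4 and 3.24 to 3.70 in controls. Of 6 tested, Tfap2c rose by a log2 difference of 0.65 (SE 0.12; limma, adjusted p = 0.0311), and 0 were called lower. Kit went the other way and came close to the threshold, at -0.52 (limma, adjusted p = 0.0524). Differences were positive for 3 of these markers and negative for 3, and the list's median was -0.02. Among all features, 2.45% were called higher. Tfap2c is also a gene of retinal amacrine cells. Of all the marker lists looked at, summed levels of 2 others did not overlap between groups. Ganglion cell markers stood at -1.35 to -0.53 with Klf4 and -1.68 to -1.42 in controls. Pericyte and fibroblast markers stood at 1.55 to 1.95 with Klf4 and 0.86 to 1.44 in controls. Among all single features, 4.56% were higher on every Klf4 array. The sums also include markers that were not tested, such that the ganglion sum covers 7 markers. Of 4 ganglion cell markers tested, 0 were called by limma, with 3 above 0 and 1, Pou4f2 (-0.34), below. At an unadjusted p under 0.05 limma gave 3 of them, Pou4f2 included, against 14.4% of all features. Of 5 pericyte and fibroblast markers tested, only Col1a1, a fibrillar collagen, rose (1.27; limma, adjusted p = 0.00355), while the other 4 lay below 0 and the median was -0.26. Their part in the members' values was not tested.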

How the data were processed

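RNA was labelled with Cy3 and read on 8 single-colour Agilent arrays. Per the file headers, Feature Extraction 10.7.3.1 gave the deposited spot intensity, with background subtracted and no scaling across arrays, and the flags for control type, saturation, outlier spots and signal well above background. The authors also deposited a log2 table; how it was made is not given in the sources. Its columns had equal medians of 7.54 and followed their own arrays (r 0.994 to 1), so its scale is log2 with no centring of genes.

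Control spots and outlier spots (324 to 421 on each array) were dropped, log2 signals were averaged over a probe's spots, and the array's 75th percentile over gene spots was then subtracted. No spot was saturated. Of 45598 gene probes, 21109 matched 1 symbol in the RefSeq GRCr8 table, 0 several and 24489 none. Unmatched probes stayed in the test. The file headers name build rn4, so no coordinates of probes or genes are given, and the promoter windows are RefSeq's. All sample columns were used. Groups were compared with limma 3.58.1 (lmFit, eBayes, two-sided, no covariates) in R 4.3.3 on 29995 genes and features with Benjamini-Hochberg adjustment, after a test of the script on simulated data. Errors are SD over arrays or the SE of the fit. The number of arrays limits the precision. Figures used matplotlib 3.10.9 in Python 3.11.15.

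The members and lists were chosen with earlier results of these data known. The text names every member with every probe, Klf4, the genes of each pathway list past the threshold (at most 6), the 2 largest differences of each that did not pass, and the 2 genes most correlated with each member. Replicate numbers are shared between groups. The deviations of same-numbered arrays correlated by 0.36, 0.24, 0.06 and 0.55, and those of differently numbered arrays by -0.42 to 0.21. The labels give no shared litter or day, so the arrays were not paired in the main fit. With the replicate number as a block, the SE was 0.17 for Pou5f1 (0.51 unblocked), 0.13 for Utf1 (0.26 unblocked) and 0.52 for Esrrb (0.43 unblocked). That fit called 0 members. The alternatives were 24 in number. The mean-signal column that the normexp alternative would use was not among the columns at hand, and the median signal was used in its place.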

Additional observations from a re-analysis of the deposited data

Results flagged for a closer look

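In 25 groups of 4 arrays, 2 held a value far from the other 3 by Dixon's criterion at the 95% level. The criterion flags 1 in 20 independent groups by chance. These groups share the same arrays, so that rate cannot be set against the 2 flags. Pou5f1 was 1.05 on control replicate 5, below the other controls at 2.85 to 2.95. Tfcp2l1 was -3.85 on the same array, above the other controls at -4.26 to -4.20. Control replicate 5 is the only control array of the second scan, and its part in these values was not tested.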

How the results depend on the processing

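Of 191 differences of the members recomputed under 24 alternatives, 159 kept their direction and side of the threshold, 29 changed sign and 3 passed the threshold. Esrrb could not be tested where all 4 arrays of a group had to be well above background. The count of members called was 2 with array quality weights (Myc and Dppa3) and 0 to 1 leaving out 1 array. With the weights, 1663 of all features were higher and 2153 lower, against 734 and 197 in the main fit. The 1 call (Dppa3) came without Klf4 replicate 4, where 1141 features were higher and 514 lower. Without both arrays numbered 4, 0 members and 3 other network genes were called by limma. Nanog was 0.03 with quantile normalization, 0.02 with no scaling and 0.03 in the authors' deposited table. Esrrb was 0.08 with quantile normalization, 0.03 with array medians, 0.17 with no scaling, 0.40 without both arrays numbered 4 and 0.05 with the percentile over probes. Utf1 was 0.07, 0.01, 0.05, 0.04 and 0.02 under the same 5 settings and 0.06 in the authors' deposited table. Lin28a was -0.08 as the mean of its kept probes. Pou5f1 was -0.12 in the first scan alone and -0.06 with array weights. Leaving out 1 array gave -0.45 to 0.34 for Pou5f1, -0.32 to 0.16 for Nanog, -0.52 to -0.12 for Myc, -0.02 to 0.24 for Lin28a, -0.41 to 0.27 for Esrrb, -0.28 to 0.08 for Utf1 and -0.26 to 0.45 for Klf4. Dppa3 was -0.84 to -0.47 and Tfcp2l1 -0.40 to -0.19 over all alternatives, Tfcp2l1 without a call. Dnmt3l (2.43 to 3.51) and Gbx2 (1.80 to 2.31) passed under all 24. Gdf3 lost its call in 8 of 23: beside the cases in the text, in the first scan alone (2.99; limma, adjusted p = 0.0754).

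The count of features lower with Klf4 was 124 with array medians, 2 with no scaling, 98 with no filter, 361 with scan as a block, 51 in the first scan alone and 2153 with array weights. The count of features higher was 410 in the first scan alone, 1663 with array weights and 867 with scan as a block. Leaving out 1 array gave 443 to 1141 higher and 47 to 514 lower, with most calls (1141 and 514) without Klf4 replicate 4. With the replicate number as a block, 557 features were higher and 109 lower, and 0 members were called; Klf4 replicate 4 correlated best with control replicate 3 (0.12). The causes of these changes were not tested.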
